A study of Mus musculus with 16 samples.

Results

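Colon RNA of germ-free Swiss Webster mice that carried a TadA mutant of Bifidobacterium UCC2003 as their single bacterium was compared with colon RNA of germ-free controls (GF). The members are the 8 arrays whose treatment label names one of these groups, 4 per group, of 16 arrays in the series. All 16 mice began as germ-free animals of the same outbred stock. The remaining arrays came from germ-free mice given the unmutated UCC2003 strain (4 arrays) and from germ-free mice that were re-conventionalised with a full microbiota (CONV, 4 arrays), and they enter here only through the shared estimate of the spread and through stated differences from the TadA mutant group. The labels used here give no age, sex, length of colonisation, bacterial load, litter, cage or kind of TadA mutation. Each title names a biological replicate, and the p-values measure the spread between these arrays. RNA came from the colon as a whole, so fewer cells of a type and less RNA per cell cannot be told apart.

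Bifidobacteria are early colonisers of the mammalian gut. Tight adherence (Tad) pili are thin surface fibres that bacteria assemble with a dedicated secretion machine, of which TadA is the ATPase. The series title links a protein of this pilus to growth of the colonic epithelium, and the comparison with GF asks which colon transcripts differ when the colonising strain carries the mutation. The epithelium renews itself from dividing cells at the crypt base, while smooth muscle, fibroblasts and lymphoid follicles lie around it in the same tissue.

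Values were log2 intensities of 23332 transcript clusters, the probe groups an exon array reads as 1 transcript, of which 1973 carry exactly 1 gene symbol. A second, gene-level table holds log2 values of 1793 genes. The authors had selected those genes by testing for any difference among the groups UCC2003, TadA mutant and GF, so a gene could enter the table because these groups differ, and counts from it are descriptions and no independent support. Its columns name the group but no replicate, and differences were tested only within each table. Array medians ran from 5.91 to 6.03 and pairwise array correlations from 0.938 to 0.979. Lypd8, a protein of the colonic epithelium that keeps flagellated bacteria off the surface, was measured at 12.95 to 13.11 on the 8 arrays, and Krt20, a keratin of differentiated surface colonocytes, at 11.02 to 11.25. In every TadA mutant array Krt20 lay below every GF array, with a difference of -0.11 and an unadjusted p of 0.25 in limma. Of the colonocyte list, which holds Krt20, 3 of 4 clusters were above 0, with a median difference of 0.01. At gene level 1 of its 3 measured genes was above 0, with a median of -0.09. On the lower side 1 of the 3 had an unadjusted p under 0.05 (24.0% of the table).

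Pancreatic transcripts were present on part of the arrays. Cpa1, a pancreatic carboxypeptidase, was above 9 log2 units on GF replicates 2, 3 and 4, at 13.24, 13.12 and 12.95, and at 4.96 on GF replicate 1. Among the TadA mutant arrays it reached 13.11 on replicate 2 and 7.49 on replicate 4, and was 4.73 and 5.01 on replicates 1 and 3. Of 11 measured clusters of the pancreas and small intestine list, 10 were lower in the TadA mutant group, with a median difference of -1.42, and 2, Ins1 (insulin) and Iapp (islet amyloid), had an unadjusted p under 0.05. The list also holds Zg16, which goblet cells make and which differed by 0.03. The mean of 4 smooth muscle clusters ran from 7.67 to 8.09 in GF, lowest on replicate 4, and from 7.84 to 8.42 in the TadA mutant group, lowest on replicate 2. Pancreatic levels were lower and smooth muscle levels higher in the TadA mutant group on average, and their part in the differences reported here was not tested beyond the values given beside them.

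**Figure D1:**
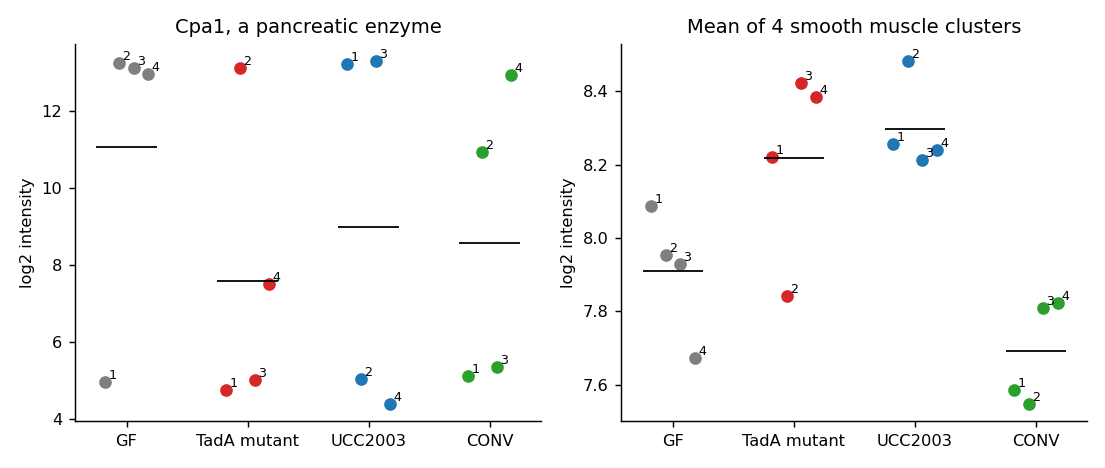
Level of Cpa1 (left) and mean level of 4 smooth muscle clusters (right) in log2 intensity on each of the 16 arrays, with the replicate number beside each point and a line at the group mean. Cpa1 was above 9 on 3 GF arrays and 1 TadA mutant array, and the smooth muscle mean was lowest in the comparison on GF replicate 4.

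No cluster passed the test between the TadA mutant and GF groups. Of 23332 clusters, 0 (0.0%) had an adjusted p under 0.05 in limma, the smallest adjusted p being 0.346. At an unadjusted p under 0.05 there were 1403 clusters (6.01%), of which 843 (3.61%) were higher and 560 (2.4%) lower in the TadA mutant group. The split depended on the scaling, since centring each array on its median gave 667 higher and 725 lower, and quantile normalization 682 higher and 736 lower. The median difference over all clusters was 0.03 log2 units. Every TadA mutant array lay above every GF array in 504 clusters (2.16%) and below in 327 (1.4%). In the authors' deposited table, 0 of 16135 features had an adjusted p under 0.05, where 938 had a p under 0.05 and the adjusted p-values started at 0.551.

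Among clusters with 1 symbol, 129 of 1973 (6.54%) had an unadjusted p under 0.05, 69 of them higher (3.5%) and 60 lower (3.04%). The difference was above 0 in 51.9% of them, all TadA mutant arrays lay above all GF arrays in 2.23% and below in 1.98%. The named cluster with the smallest p was S1pr4, a sphingosine-1-phosphate receptor of lymphocytes. Its log2 values were 4.93, 4.61, 5.27 and 5.13 on TadA mutant arrays 1 to 4 and 5.62, 5.66, 5.97 and 5.99 on GF arrays 1 to 4. All 4 TadA mutant values lay below all 4 GF values, a difference of -0.83 (SE 0.15, adjusted p = 0.422 in limma). Clec2e, a C-type lectin, had the largest difference of the 12 named clusters on the lower side, at -1.56 (SE 0.43). Its GF values were 7.11, 6.81, 8.25 and 7.74 and its TadA mutant values 7.10, 6.30, 4.65 and 5.61, so the groups overlapped.

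The other named clusters on the lower side were Pspn (a neurotrophic ligand of the GDNF family), H2ap, Gipc3, Sephs2 (an enzyme of selenocysteine synthesis), the olfactory receptor Olfr610, B3galt6 (a galactosyltransferase of proteoglycan linkers), Rgs9bp, Tlx3, Rhof and Irf2bpl. Their differences ran from -1.05 in Olfr610 to -0.31 in Rhof. The groups did not overlap in Pspn, H2ap, Sephs2, Olfr610, B3galt6 and Rgs9bp.

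On the higher side, H2-M2, a nonclassical class I histocompatibility gene, had the smallest p. It was 5.24, 5.50, 5.17 and 5.18 on TadA mutant arrays against 4.84, 4.91, 4.59 and 4.50 on GF arrays. The groups did not overlap, and the difference was 0.56 (SE 0.13, adjusted p = 0.748 in limma). Mcpt1, a chymase of mucosal mast cells, was 6.0, 5.41, 5.67 and 5.53 against 4.93, 5.16, 5.00 and 4.98. It too did not overlap, with a difference of 0.63 (SE 0.15). The remaining named clusters were Olfr323, the secreted glycoprotein Fstl1, Dcun1d1, Hyls1, the protocadherin Pcdh18, the smooth muscle calponin Cnn1, Mllt11, and 3 receptors or surface proteins of leukocytes, Cd84, Cd300c2 and Cd53, with differences from 0.24 in Pcdh18 to 0.77 in Olfr323.

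**Figure D2:**
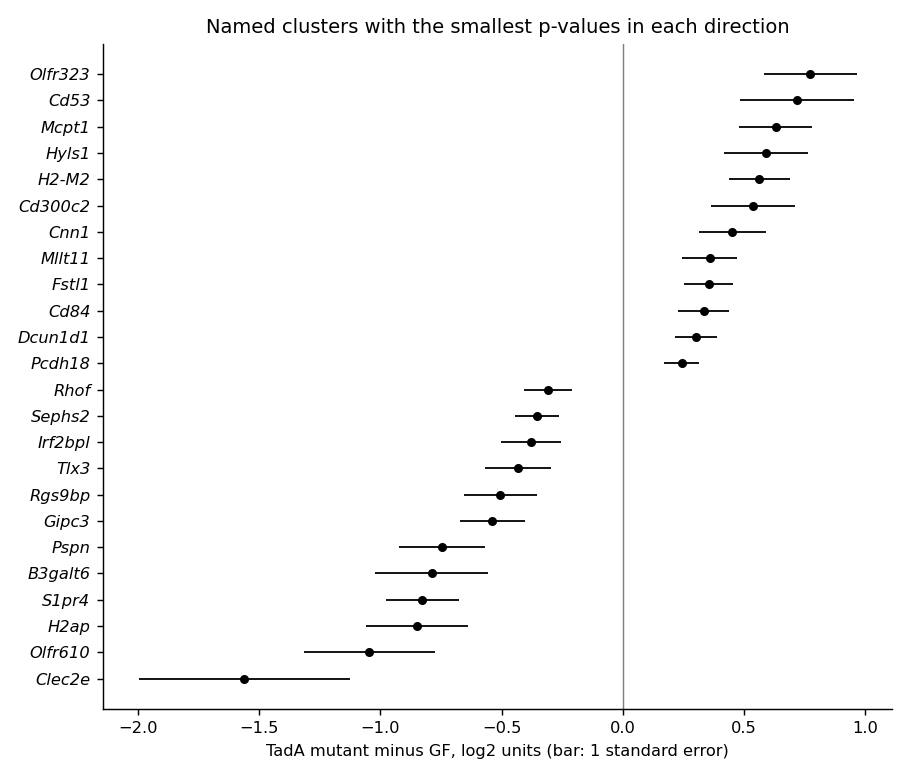
Difference of TadA mutant minus GF in log2 units for the 24 named clusters with the smallest p-values, 12 in each direction, with bars of 1 standard error. The differences ran from -1.56 in Clec2e to 0.77 in Olfr323, and 0 of the 24 passed the adjusted threshold.

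The clusters that were lower at an unadjusted p under 0.05 lay at lower levels. Their median level over the TadA mutant and GF arrays was 5.13 log2 units. It was 6.25 for those that were higher at that threshold and 5.95 for all clusters. The 3 clusters with the smallest p of all carry no name here. One of them was 2.55 ± 0.37 (SD, n = 4) in the TadA mutant group and 4.29 ± 0.23 in GF, and the others were higher in the TadA mutant group, at 7.14 ± 0.17 against 6.35 ± 0.16 and at 8.89 ± 0.21 against 8.06 ± 0.21.

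In the gene-level table, 0 of 1793 genes (0.0%) passed, with p-values of limma adjusted over 35860 tests, the size of a table from which selection at 0.05 would keep 1793 genes by chance. The smallest adjusted p was 0.270. An unadjusted p under 0.05 was found for 902 genes (50.3%), which the authors' selection raises, with 471 higher (26.3%) and 431 lower (24.0%). All TadA mutant columns lay above all GF columns in 258 genes (14.4%) and below them in 236 (13.2%). The median difference of all 1793 genes was -0.01. List counts below are read against these shares.

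Genes of the mitotic spindle and kinetochore were higher in the TadA mutant group. Of 24 measured members, 24 had a difference above 0, where 49.4% of the table's genes did. An unadjusted p under 0.05 was found in 21 (26.3% of the table on the higher side), and 0 passed after adjustment. The median difference was 0.40 log2 units, with a range of 0.15 to 0.73. The list holds 67 genes, of which only these 24 entered the gene-level table. The authors' selection and the choice of the list with earlier results known both bear on these counts.

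Kif2c, a kinesin that depolymerises microtubules at the kinetochore, had the smallest p of the list. Its log2 values were 5.83, 5.78, 6.37 and 5.99 in the TadA mutant columns and 5.68, 5.23, 5.14 and 5.17 in the GF columns. The groups did not overlap, although the highest GF column came near the lowest TadA mutant column, and the difference was 0.68 (SE 0.18, adjusted p = 0.647 in limma). Bub1b, the checkpoint kinase that delays anaphase, was 6.0, 5.53, 6.06 and 6.01 against 5.39, 5.56, 4.89 and 4.84. One GF column exceeded the lowest TadA mutant column, and the difference was 0.73 (SE 0.19). Kif20a, a kinesin of cytokinesis, was 6.20, 6.04, 6.5 and 6.20 against 5.87, 5.87, 5.97 and 5.79, without overlap, a difference of 0.36 (SE 0.10).

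Other members included the spindle motor Kif11 (0.65), the DNA topoisomerase Top2a (0.62), the centromere protein Cenpf (0.38), the cyclin Ccnb2 (0.47) and the kinase Aurka (0.33). The members with an unadjusted p of at least 0.05 were Cenpa, the centromeric histone, at 0.15, Prc1, a microtubule bundler of the spindle midzone, at 0.30, and Ckap2 at 0.31. In 10 of 24 members every TadA mutant column lay above every GF column (14.4% of the table). Leaving out 1 column at a time kept all 24 above 0, but the number at an unadjusted p under 0.05 ran from 12 without the fourth GF column to 23.

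The mean of the 24 genes was 6.51 ± 0.17 (SD, n = 4) in the TadA mutant group, 6.07 ± 0.21 in GF and 6.06 ± 0.17 in UCC2003. The UCC2003 columns, set against the same GF columns, gave a median difference of -0.03 over the 24 genes, 9 of them above 0 (41.4% of the table in this comparison), and 0 on the higher side had an unadjusted p under 0.05 (28.9% of the table). Taken directly, TadA mutant minus UCC2003 was above 0 in 24 of 24, from 0.21 to 0.65, with 21 at an unadjusted p under 0.05 (23.7% of the table) and 0 passing after adjustment, the smallest adjusted p being 0.380. Both differences use the same TadA mutant columns. The authors' selection could admit these genes through the TadA mutant columns alone, which favours a difference from UCC2003 as well as from GF. Neither count is therefore independent support.

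**Figure D3:**
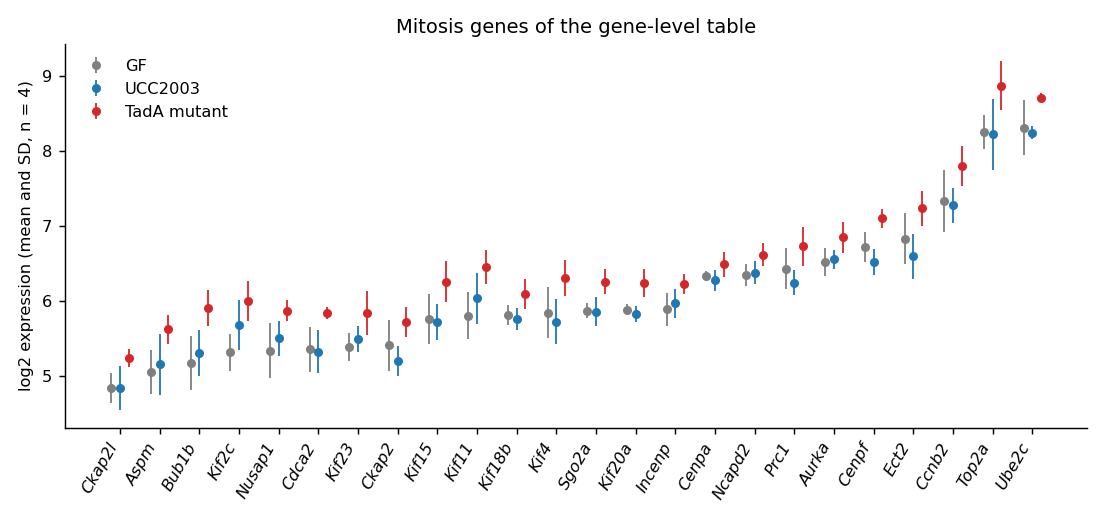
Mean log2 expression with SD (n = 4) of the 24 mitosis genes in the GF, UCC2003 and TadA mutant columns of the gene-level table. TadA mutant means lay above both other means in every gene, by 0.15 to 0.73 over GF and by 0.21 to 0.65 over UCC2003.

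In the cluster table, which the authors did not select on these groups, 4 members of the mitosis list were measured. The differences were 0.36 in Birc5, an inhibitor of apoptosis that guides the chromosomal passenger complex, 0.38 in Ube2c, a ubiquitin carrier of mitotic exit, 0.23 in Cks1b and 0.21 in Spc24. All were above 0, where 56.2% of clusters were, and 0 had an unadjusted p under 0.05. Birc5 was 7.48, 7.40, 7.81 and 7.58 on TadA mutant arrays and 7.52, 7.46, 6.93 and 6.93 on GF arrays, so GF replicates 1 and 2 lay among the TadA mutant values. Without the arrays with Cpa1 above 9, which leaves 3 TadA mutant arrays and 1 GF array, 3 of the 4 were above 0 and Cks1b was at -0.19.

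DNA replication genes were few. In the gene-level table Orc6, a subunit of the origin recognition complex, differed by 0.47 (SE 0.14), the S phase cyclin Ccna2 by 0.40 (SE 0.16) and the chromatin assembly factor Chaf1a by 0.09 (SE 0.12), the first 2 with an unadjusted p under 0.05. Gins2, Ccne2 and Mcm4 were measured as clusters, at 0.22, 0.18 and 0.12, with 0 of 3 at an unadjusted p under 0.05.

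The promoters of the leading mitosis genes are shown because cell cycle genes commonly carry a cell cycle homology region and CCAAT boxes just before their start. The letters TTTGAA and CCAAT were searched on both strands in the 250 bases before the start in RefSeq promoters of GRCm38.p6. Of the 24 members, 21 had a promoter in the table. TTTGAA was in at least 1 promoter of 11 of the 21 members (52.4%), and CCAAT in 18 of the 21 (85.7%). Counted by promoter, TTTGAA was in 12 of the 24 promoters of these members (50.0%) and in 16% of all 32851 promoters. CCAAT was in 20 of the 24 promoters (83.3%) and in 33.8% of all promoters. No test was made of these shares, and a match is not a site. The 150 bases before the start follow for 3 members among those with the smallest p-values, with either motif in capitals, on chr4:117178773-117178922 (minus strand), chr2:118598061-118598210 (plus strand) and chr19:37376232-37376381 (plus strand).
Kif2c: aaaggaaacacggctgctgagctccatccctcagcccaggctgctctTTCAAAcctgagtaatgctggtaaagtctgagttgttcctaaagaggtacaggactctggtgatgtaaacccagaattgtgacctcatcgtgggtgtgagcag
Bub1b: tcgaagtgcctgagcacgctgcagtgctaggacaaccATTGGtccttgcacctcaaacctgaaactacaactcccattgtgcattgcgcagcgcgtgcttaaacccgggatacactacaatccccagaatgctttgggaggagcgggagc
Kif11: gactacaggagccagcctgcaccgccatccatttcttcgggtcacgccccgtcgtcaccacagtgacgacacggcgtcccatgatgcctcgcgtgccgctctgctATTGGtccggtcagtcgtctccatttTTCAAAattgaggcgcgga
All matches shown read on the strand opposite to the gene, as TTCAAA or ATTGG here. The bases of Kif11 held both motifs, those of Kif2c TTTGAA and those of Bub1b CCAAT.

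Antigen presentation genes were higher. Of 8 members measured at gene level, 8 were above 0 and 7 had an unadjusted p under 0.05 (26.3% of the table on the higher side), with a median difference of 0.67. H2-DMb1, which helps load peptides onto class II molecules, was 8.59, 9.76, 9.27 and 9.37 in the TadA mutant columns and 7.99, 8.21, 8.09 and 7.38 in the GF columns. The groups did not overlap, and the TadA mutant level was 2.52-fold the GF level, a difference of 1.33 (SE 0.22, adjusted p = 0.270 in limma). H2-Ab1, a class II chain, was 7.47, 7.89, 7.69 and 8.02 against 6.74, 7.01, 7.18 and 6.55, also without overlap, a difference of 0.90 (SE 0.17).

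Cd74, the class II invariant chain, differed by 0.87 (SE 0.20), H2-Aa by 0.64, the class II transactivator Ciita by 0.69, the immunoproteasome subunit Psmb9 by 0.56 and the class I transactivator Nlrc5 by 0.33. H2-Q1, a class I gene, differed by 0.17 and had an unadjusted p above 0.05. The UCC2003 columns differed from the same GF columns by 0.77 in H2-DMb1, 0.65 in H2-Ab1 and 0.62 in Cd74. TadA mutant minus UCC2003 was 0.56 (SE 0.22) in H2-DMb1, with an adjusted p of 1 in limma. In the cluster table the 3 measured members were H2-M2, the proteasome activator subunit Psme2 at 0.66 (SE 0.51) and H2-Q1 at 0.05. Psme2 ran from 3.16 to 5.40 in GF and was at -0.05 without the arrays with Cpa1 above 9.

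Promoters of 3 of the 8 members were in the table, and all 3 held CCAAT, as did 33.8% of all 32851 promoters. In the B cell list CCAAT was in at least 1 promoter of 2 of 6 members (33.3%) and in 3 of their 8 promoters (37.5%). The Y box of class II promoters has these letters, but a match is not a site, and no test was made. H2-DMb1 (chr17:34153041-34153190, plus strand) and H2-Aa (chr17:34287824-34287973, minus strand) are shown for the 150 bases before the start in GRCm38.p6, with CCAAT on either strand in capitals.
H2-DMb1: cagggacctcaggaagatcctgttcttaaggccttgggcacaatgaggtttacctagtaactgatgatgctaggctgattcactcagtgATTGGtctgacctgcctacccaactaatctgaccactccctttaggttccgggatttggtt
H2-Aa: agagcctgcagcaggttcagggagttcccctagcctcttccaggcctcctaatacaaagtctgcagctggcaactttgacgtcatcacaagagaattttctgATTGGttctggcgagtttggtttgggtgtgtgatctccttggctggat

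B cell genes were higher as well, in 8 of 8 measured members (49.4% of the table) with a median difference of 0.79. All 8 had an unadjusted p under 0.05 (26.3% of the table on the higher side), and 7 or 8 did with 1 column left out. Fcmr, the Fc receptor for IgM, was 6.49, 5.84, 6.39 and 6.38 in the TadA mutant columns and 5.60, 4.94, 5.28 and 5.13 in the GF columns, without overlap, a difference of 1.04 (SE 0.25). Fcer2a, the low-affinity IgE receptor CD23, was 5.36, 4.86, 5.58 and 5.41 against 4.82, 4.53, 4.56 and 4.77, a difference of 0.63 (SE 0.15).

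The B cell receptor signalling chains Cd79a and Cd79b differed by 0.96 and 0.88, the complement receptor Cr2 by 0.99, the surface protein Ms4a1 (CD20) by 0.71, the adaptor Bank1 by 0.58 and the transcription factor Spib by 0.25. The mean of the 8 genes was 5.77 ± 0.33 (SD, n = 4) in the TadA mutant group, 5.76 ± 0.36 in UCC2003 and 5.02 ± 0.11 in GF. TadA mutant minus UCC2003 had 0 of 8 members at an unadjusted p under 0.05, where 40.0% of the table did. Among clusters, Vpreb3 was 6.57, 6.20, 6.36 and 6.52 on TadA mutant arrays against 5.91, 5.88, 5.98 and 6.16 on GF arrays, a difference of 0.43 (SE 0.16), while Ltb and Ly6d differed by 0.23 and 0.25.

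The list of cytokines, chemokines and their receptors was mixed, with 5 of 9 genes and 10 of 19 clusters above 0. At an unadjusted p under 0.05 it had 4 genes on the higher side and 1 on the lower. Of the 4, Cxcl13, the chemokine that draws B cells, differed by 0.64, Il2rg, the common gamma chain of cytokine receptors, by 0.57, and the others were Ccr6 and Csf2. Ccr6, a receptor of lymphocytes and dendritic cells, was 3.86, 3.37, 4.14 and 4.60 in the TadA mutant columns and 3.00, 1.97, 2.40 and 2.40 in the GF columns, a difference of 1.55 (SE 0.31), and was 0.68 (SE 0.26) as a cluster. Csf2, a growth factor for granulocytes and macrophages, was 5.03, 4.59, 5.19 and 4.63 against 3.99, 4.10, 4.10 and 4.18, without overlap, a difference of 0.77 (SE 0.14). Il23a, a subunit of interleukin 23, was the 1 on the lower side, at -0.32, with every TadA mutant column below every GF column. In the endothelium list Madcam1, the address molecule for gut lymphocytes, differed by 0.62 at gene level and 0.26 as a cluster. Of that list 2 of 2 genes and 2 of 4 clusters were above 0.

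T and NK cell genes were mixed. At gene level 3 of 4 measured members were above 0, each with an unadjusted p under 0.05, and 1 on the lower side also had one. As clusters 1 of 3 was above 0, with a median of -0.01, and S1pr4, described above, was the 1 with an unadjusted p under 0.05. At gene level the T cell receptor chain Cd3g differed by 0.38, the cytotoxic granule protein Prf1 by 0.23 and the integrin Itgae by 0.18. Of the clock genes 3 of 3 were below 0 and 2 had an unadjusted p under 0.05. Per1, a repressor of the clock, differed by -0.37 (SE 0.13) and Bhlhe41 by -0.19 (SE 0.21). The labels used here give no hour of sampling.

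Macrophage and mast cell markers were measured in both tables. The complement subunit C1qb differed by 0.40 (SE 0.16) as a cluster and by 0.29 (SE 0.10) at gene level, C1qa by 0.54 and the receptor Csf1r by 0.34. The scavenger receptor Cd163 differed by -0.01. Of the myeloid list 4 of 4 clusters were above 0, with 1 at an unadjusted p under 0.05, and 2 of 3 genes, both under 0.05. Without the arrays with Cpa1 above 9, 2 of the 4 clusters were above 0 and their median was 0.033, against 0.295 with all arrays. Of 4 mast cell clusters 4 were above 0, with 1, Mcpt1, at an unadjusted p under 0.05. At gene level Mcpt1 differed by 0.43 (SE 0.13) and Il1rl1, the interleukin 33 receptor, by 0.53 (SE 0.16), while the mast cell carboxypeptidase Cpa3 differed by 0.09.

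**Figure D4:**
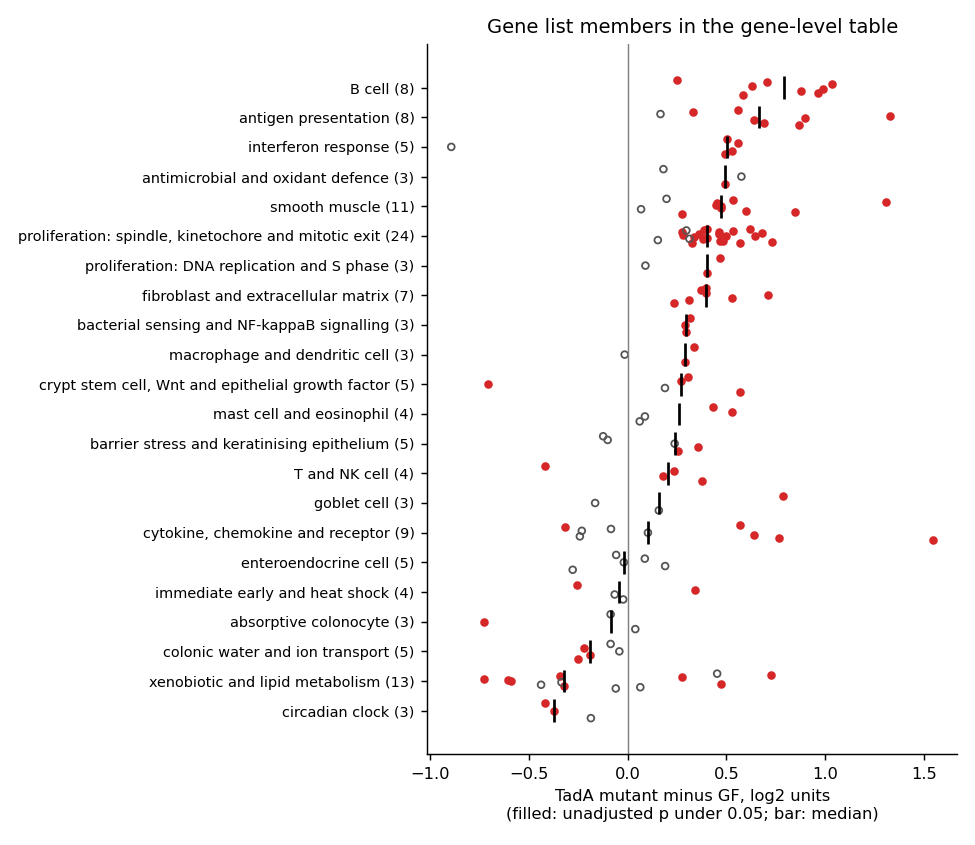
Difference of TadA mutant minus GF in log2 units for the members of each gene list with at least 3 genes in the gene-level table (number measured in brackets), filled where the unadjusted p was under 0.05, with a bar at the list median. Medians ran from -0.37 in the clock list to 0.79 in the B cell list.

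Smooth muscle genes were higher in 11 of 11 measured members (49.4% of the table). Their median difference was 0.47, and 9 had an unadjusted p under 0.05 (26.3% of the table on the higher side). Synm, the intermediate filament protein synemin, was 7.77, 7.44, 8.31 and 8.14 in the TadA mutant columns and 6.86, 6.70, 7.0 and 5.86 in the GF columns, without overlap, a difference of 1.31 (SE 0.26). The actin-binding protein Cald1 differed by 0.85 (SE 0.23) and desmin, Des, by 0.60 (SE 0.17). Desmin overlapped between groups, at 7.86 to 8.53 against 7.31 to 8.13. The myosin genes Myh11 and Myl9 differed by 0.47 each and the myosin light chain kinase Mylk by 0.45.

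With the fourth GF column left out, 10 of the 11 were above 0 and 6 had an unadjusted p under 0.05. As clusters, Cnn1 differed by 0.45, Lmod1, which nucleates actin in muscle, by 0.44 and the tropomyosin Tpm2 by 0.35, all with an unadjusted p under 0.05, while Pln, the regulator of the calcium pump, differed by -0.01. Without the arrays with Cpa1 above 9, 1 of the 4 clusters had an unadjusted p under 0.05 and the median was 0.25, against 0.39 with all arrays. In the UCC2003 columns the same 11 genes had a median of 0.63 over the same GF columns, and TadA mutant minus UCC2003 had a median of -0.10.

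All 7 measured members of the fibroblast and matrix list were higher (49.4% of the table), with a median of 0.40. All 7 had an unadjusted p under 0.05 (26.3% of the table on the higher side). Lum, a proteoglycan of collagen fibres, was 7.25, 7.36, 7.33 and 7.64 against 6.63, 6.78, 6.84 and 6.5, without overlap, a difference of 0.71 (SE 0.12, adjusted p = 0.270 in limma). Fibronectin, Fn1, differed by 0.53 (SE 0.15) and the growth factor receptor Pdgfra by 0.40 (SE 0.12). Without the fourth GF column 5 of the 7 had an unadjusted p under 0.05. Fgf2, a growth factor for fibroblasts and endothelium, was 4.71, 4.99, 5.36 and 5.52 against 3.90, 3.68, 3.87 and 4.03, without overlap, a 2.42-fold level and a difference of 1.28 (SE 0.22). UCC2003 lay at 5.33 ± 0.48 (SD, n = 4) in Fgf2, and TadA mutant minus UCC2003 was -0.19 (SE 0.22). Of the 7 list members, 7 were above the same GF columns in UCC2003, with a median of 0.40. There 4 had an unadjusted p under 0.05 (28.9% of the table on the higher side). TadA mutant minus UCC2003 had a median of 0.02 over the 7.

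Of 5 measured genes of the crypt stem cell and growth factor list, 4 were above 0, 3 of them with an unadjusted p under 0.05. The 1 below 0 was Igf2, also with an unadjusted p under 0.05. Igf2, the insulin-like growth factor, was 5.64, 5.63, 5.40 and 5.60 in the TadA mutant columns and 6.44, 6.41, 5.89 and 6.36 in the GF columns. All TadA mutant values lay below all GF values, a difference of -0.71 (SE 0.12, adjusted p = 0.270 in limma), and UCC2003 lay between them at 6.01 ± 0.13 (SD, n = 4). Ascl2, the transcription factor of crypt stem cells, differed by 0.57 (SE 0.20), the Wnt agonist Rspo3 by 0.30 (SE 0.11) and the cyclin Ccnd1 by 0.19. Ascl2 ran from 5.27 to 6.40 in GF and from 6.22 to 6.64 in the TadA mutant group.

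Of other genes with the smallest p-values at gene level, the microRNA gene Mir1900 differed by 0.97 (SE 0.14), Snx6, a sorting nexin, by 0.68, the protein kinase C gene Prkcb by 0.88, the transcriptional corepressor Trim28 by 0.51 and the interferon-inducible GTPase Gvin1 by 1.34. Prkcb as a cluster differed by -0.04, so its tables disagreed. On the lower side were Ddi1, Catsperb, Cyp11b2, Vta1, Vamp7-ps, Rhox8, Olfr677, the recombinase gene Rag1, Olfr912, Olfr1254 and Dnah14, with differences from -1.44 in Olfr912 to -0.47 in Rhox8. Several lay at low levels, such as Vta1 at 1.22 to 1.77 against 2.20 to 3.22. Olfactory receptor genes made up 31 of the 431 genes that were lower at an unadjusted p under 0.05 (7.19%). They were 12 of the 471 that were higher (2.55%) and 69 of all 1793 (3.85%). Among clusters with 1 symbol, they were 6 of the 60 lower, 3 of the 69 higher and 210 of all 1973. In that table, which the authors did not select on these groups, the lower clusters held no larger share of them than all clusters with 1 symbol.

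Of the interferon genes 4 of 5 were above 0, and of the bacterial sensing genes 3 of 3. Parp14, Gbp8, Stat2 and Gbp4, all interferon-induced, differed by 0.56, 0.53, 0.50 and 0.49, each with an unadjusted p under 0.05 and none overlapping between groups, while Ifit3 differed by -0.89 with an unadjusted p above 0.05. The UCC2003 columns differed from the same GF columns by 0.58 in Parp14 and 0.56 in Stat2. All 5 interferon genes were higher there, by 0.37 to 1.26, each with an unadjusted p under 0.05 (28.9% of the table on the higher side). TadA mutant minus UCC2003 ran from -2.15 in Ifit3 to 0.16, with 1 of 5 at an unadjusted p under 0.05 (40.0% of the table). Of 5 interferon clusters 0 had an unadjusted p under 0.05. The peptidoglycan sensor Nod1 differed by 0.30 (SE 0.10), its kinase Ripk2 by 0.32 (SE 0.12) and the NF-kappaB subunit Rel by 0.29 (SE 0.10). As clusters the Toll-like receptors Tlr6 and Tlr2 differed by 0.26 and 0.34, and Tlr9 by -0.09.

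In the list of antimicrobial and oxidant defence genes, 3 of 3 genes and 5 of 6 clusters were above 0, with 1 of each at an unadjusted p under 0.05. The 1 cluster below 0 was at -0.87, the largest difference of the list in size, with an unadjusted p of at least 0.05. Nox1, the superoxide-producing oxidase of the colon, was 6.79, 7.25, 7.38 and 7.51 on TadA mutant arrays and 7.05, 7.05, 6.49 and 6.12 on GF arrays. GF replicates 1 and 2 lay above the lowest TadA mutant array, and the difference was 0.55 (SE 0.23, adjusted p = 0.812 in limma). Duox2, the gene-level member with an unadjusted p under 0.05 and a hydrogen peroxide-producing oxidase, was 6.69, 7.41, 7.22 and 6.97 against 6.73, 6.76, 6.58 and 6.25, a difference of 0.49 (SE 0.16). Noxo1, the organiser subunit of Nox1, differed by 0.18 (SE 0.15). The gasdermins Gsdmc2, Gsdmc and Gsdmc4, similar neighbouring genes whose probes may share signal, differed by 0.36, 0.26 and 0.24. They belong to the barrier stress list, which had 3 of 5 genes above 0 and 2 at an unadjusted p under 0.05. Serpinb1a, a protease inhibitor, was the lowest of its genes at -0.12, and 3 of its 6 clusters were above 0, with a median of -0.11.

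Metabolic enzymes lay on both sides of GF. Gsta2, a glutathione transferase that conjugates toxic compounds, was 7.78, 7.32, 7.76 and 7.63 in the TadA mutant columns and 8.57, 7.93, 8.38 and 8.03 in the GF columns. The groups did not overlap, and the difference was -0.60 (SE 0.19, adjusted p = 0.751 in limma). UCC2003 was lower still at 7.12 ± 0.35 (SD, n = 4), and TadA mutant minus UCC2003 was 0.50 (SE 0.19). The carnitine transferase Cpt1a, which admits fatty acids to mitochondria, differed by -0.32, the pyruvate dehydrogenase kinase Pdk4 by -0.34, and the related transferase Gsta1, whose probes may share signal with Gsta2, by -0.59.

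In contrast Scd2, a fatty acid desaturase, was 10.41, 10.39, 10.69 and 10.53 against 10.03, 9.93, 9.74 and 9.42, without overlap, a difference of 0.73 (SE 0.15), and 0.77 (SE 0.30) as a cluster. At an unadjusted p under 0.05, the list had 3 genes on the higher side and 5 on the lower of 13 measured, with a median of -0.32. Of its 9 clusters it had 3 on the higher side and 0 on the lower, with a median of 0.23. Nqo1, a quinone reductase, differed by 0.42 (SE 0.18) as a cluster and 0.28 at gene level.

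Ion transport genes were lower in 5 of 5 measured genes, 3 of them with an unadjusted p under 0.05 (24.0% of the table on the lower side). These were the chloride channel Clcn2 at -0.25 (SE 0.09), the glucose transporter Slc2a1 at -0.22 (SE 0.10) and Scnn1a, a subunit of the epithelial sodium channel, at -0.19 (SE 0.09). Leaving out 1 column at a time left 1 or 2 of these. The cluster members of the list, among them the water channel Aqp4 at 0.35 (SE 0.18), had 3 of 6 above 0. Goblet cell clusters differed by -0.10 to 0.23, with 0 of 7 at an unadjusted p under 0.05, and included the bestrophin channel Best2 at 0.11. Hormone genes of enteroendocrine cells had 0 of 5 at an unadjusted p under 0.05 at gene level. Gcg differed by -0.28 (SE 0.16), Insl5 by 0.19 (SE 0.14) and Pyy by 0.09 (SE 0.10). As clusters 3 of 7 members of the list were above 0, with a median of -0.03. The peptide gene Ucn3, at -0.81 (SE 0.37), was the 1 cluster with an unadjusted p under 0.05. With the level of the pancreatic genes Cpa1 and Cel as a covariate, 0 of the 7 had one. Claudins, mucin glycosylation enzymes and unfolded protein response genes had 0 clusters at an unadjusted p under 0.05, of 6, 8 and 3 measured. At gene level the single measured junction gene, Marveld3, which encodes a tight junction protein, was lower by 0.24 (SE 0.10) with an unadjusted p under 0.05.

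**Figure D5:**
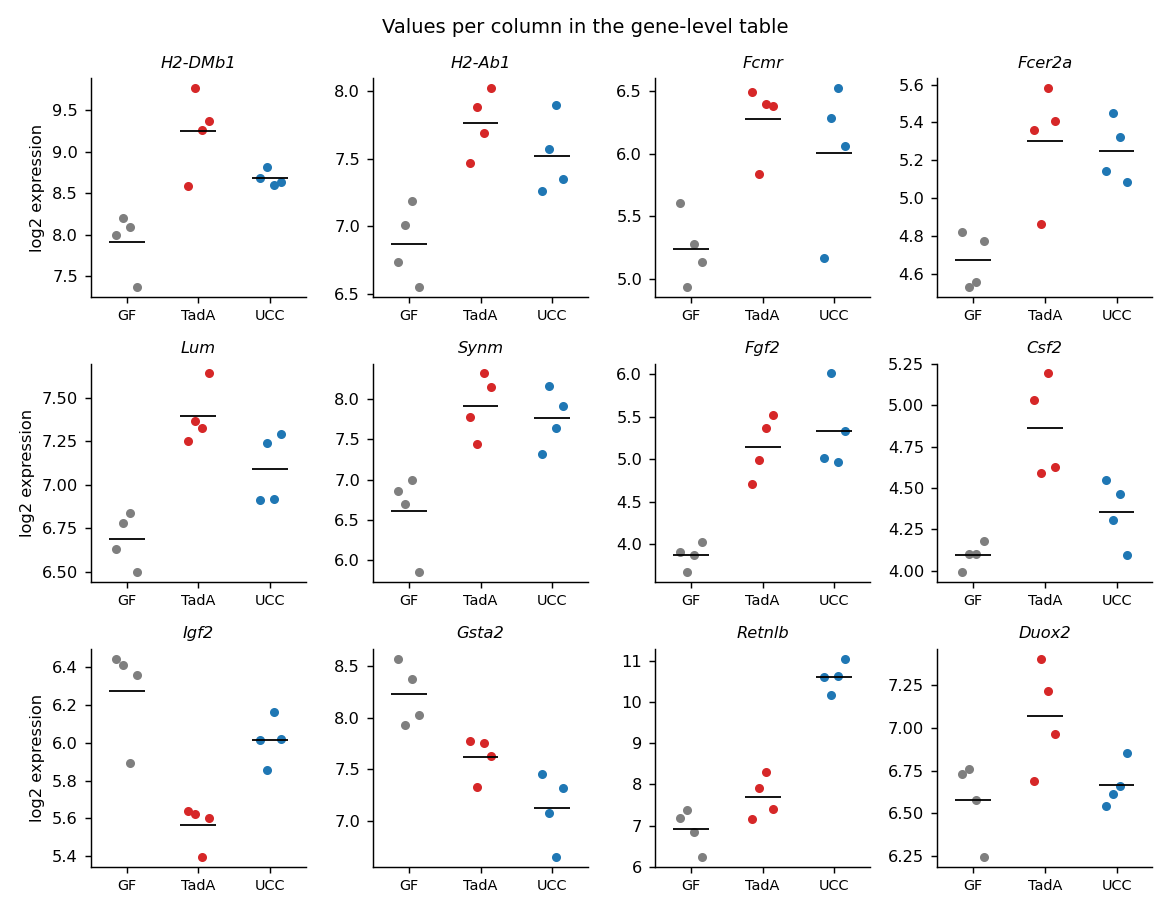
Log2 expression of 12 genes in each column of the gene-level table for GF, TadA mutant (TadA) and UCC2003 (UCC), with a line at the group mean. H2-DMb1, Fgf2, Lum, Csf2 and Fcmr lay higher in every TadA mutant column than in every GF column, and Igf2 and Gsta2 lower.

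Retnlb and B4galnt2 passed the adjusted test between the TadA mutant group and UCC2003 and did not pass it between the TadA mutant group and GF. Retnlb, a goblet cell protein active against bacteria, was 7.17, 7.90, 8.30 and 7.40 in the TadA mutant columns and 7.17, 7.38, 6.84 and 6.24 in the GF columns. The groups overlapped, and the difference was 0.79 (SE 0.28, adjusted p = 0.984 in limma). In UCC2003 it was 10.61 ± 0.36 (SD, n = 4), and TadA mutant minus UCC2003 was -2.91 (SE 0.28, adjusted p = 0.00241 in limma). B4galnt2, a glycosyltransferase of the gut epithelium, was 7.67, 7.14, 7.41 and 7.61 on TadA mutant arrays, 7.23, 7.51, 7.57 and 7.16 on GF arrays and 5.15 ± 0.35 in UCC2003. TadA mutant minus GF was 0.09 (SE 0.29) and TadA mutant minus UCC2003 2.31 (SE 0.29, adjusted p = 0.0132 in limma). At gene level both calls were lost in an ordinary fit without moderation, where the adjusted p was 0.144 in Retnlb and 0.122 in B4galnt2, and both held in limma in 12 of 12 fits with 1 column left out. The cluster call of B4galnt2 was lost in that ordinary fit (adjusted p = 0.0816) and without the arrays with Cpa1 above 9 (adjusted p = 0.634). It was also lost in limma in 5 of 16 fits with 1 array left out, those without TadA mutant replicate 1, 3 or 4 or UCC2003 replicate 3 or 4, with adjusted p-values up to 0.0903. The difference stayed between 2.18 and 2.35 in these fits.

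In the direct difference of TadA mutant and UCC2003, 2 of 23332 clusters passed (0.00857%), B4galnt2 and one without a name here, and 2 of 1793 genes (0.112%), Retnlb and B4galnt2. Against CONV, 327 clusters passed (1.4%). TadA mutant minus CONV was -1.72 (SE 0.11) in Slc13a2, a citrate transporter, and -2.0 (SE 0.18) in Aqp4. Both passed the adjusted test, and neither gene had an unadjusted p under 0.05 against GF. The number of CONV differences was 29 without the arrays with Cpa1 above 9.

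The tables could be compared in 132 pairs of a named cluster and a gene of the same symbol, which come from the same arrays and are no replication. The sign was the same in 122, the median absolute distance was 0.087 log2 units, and 6 pairs were more than 0.5 apart. These were Clec2e, Crygn, Il17rd, Prkcb, Ccr6 and B3galt6. Il17rd was 0.53 as a cluster and -0.18 at gene level, and Crygn 0.24 and -0.41. Retnla and Glycam1, named here after their values were seen, gave close values in both tables. Retnla, a resistin-like protein of alternatively activated macrophages, differed by 0.87 and 0.78. Glycam1, a mucin-like ligand on the vessels through which lymphocytes enter lymphoid tissue, differed by 1.08 and 1.06.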

How the data were processed

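The authors deposited RMA-normalised log2 intensities, for which the submitters' processing notes name Affymetrix Expression Console 1.1, Partek and mm9. Per the file headers, the authors' comparison table gives a signed fold change (a score with no values between -1 and 1), a p-value and an adjusted p-value for each pair of groups, where a negative fold meant TadA mutant above GF in all 16135 features. The deposited gene-level table holds log2 values and the p-value of the authors' ANOVA.

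Group means were fitted with limma 3.58.1 in R 4.3.3, to 16 arrays and, for the gene-level table, to its 3 groups. Tests were two-sided and moderated, with Benjamini-Hochberg adjustment and a threshold of 0.05. RMA makes array distributions alike, so a shift of all genes cannot be seen. Precision is limited by the number of arrays. Of 1973 clusters with 1 symbol, 1856 were found in the reference by gene ID. Of the 1793 gene-level genes, 1595 were found by symbol or synonym. Coordinates of the arrays were not used.

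Named genes are the 12 smallest p-values in each direction and table among readable symbols, the 3 smallest of each list with at least 3 members, Retnlb and B4galnt2, and other members of the lists, except some that are not reported here. Members, lists and rules were chosen with earlier results of these data known. Same-numbered TadA mutant and GF arrays had correlated deviations of 0.206, 0.109, 0.024 and -0.18, so the numbers were not taken as pairs. The procedure was tested on simulated data. In simulated arrays with independent noise, limma recovered 64 of 100 changes of 1 log2 unit and 88 of 100 of 2 log2 units. It made 15 false calls among 23332 clusters. Alternatives changed the arrays fitted, normalization, filter, variance prior, covariates and each array in turn.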

Additional observations from a re-analysis of the deposited data

Results flagged for a closer look

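One array stood apart from the other 3 of its group in 16 of 348 groups tested over 174 named features, by the ratio of its gap to the whole range, and chance alone flags about 1 in 20 groups. Among clusters these were Cd84 at 5.84 on the highest TadA mutant array, Pspn at 5.85 and Ccl4 at 4.95 on the highest GF array, and Ltb at 5.39, C1qb at 5.79 and Trib3 at 5.28 on the lowest GF array. In the gene-level table they were Igf2 at 5.40 in the lowest TadA mutant column and 5.89 in the lowest GF column, and Csf1r at 6.88 in the highest TadA mutant column and 5.85 in the lowest GF column. Bub1b at 5.53, Fcmr at 5.84 and Ms4a1 at 4.99 were set apart by the lowest TadA mutant column, and Olfr677 at 4.50, Kif2c at 5.68 and Slc9a3 at 7.82 by the highest GF column.

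Of the named genes, 3 features differed between the TadA mutant and UCC2003 groups after adjustment in limma. These were B4galnt2 at 2.31 as a cluster and 2.18 at gene level, and Retnlb at -2.91. Between the TadA mutant and CONV groups 12 clusters differed after adjustment. The TadA mutant group was higher in Cnn1 (0.94), Best2 (1.02), the lectin Reg4 (0.59) and Tpm2 (0.55). It was lower in Rhof (-0.43), Krt20 (-0.49), H2-Q1 (-0.46), Aqp4 (-2.0), Slc13a2 (-1.72), the claudin Cldn23 (-0.94), the surface protein Ly6a (-0.99) and B4galnt2 (-1.46). GF cancels in these differences.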

How the results depend on the processing

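Between the TadA mutant and GF groups, the count of clusters passing ran from 0 to 1 when 1 array was left out, the 1 coming without UCC2003 replicate 3. The count at an unadjusted p under 0.05 was 1079 with the Cpa1 and Cel level as a covariate and 732 under the smooth muscle covariate. With 1 array left out it ran from 882 without GF replicate 4 to 2096 without GF replicate 3. With the replicate number as a replicate block, it was 1244 and 0 clusters passed. At gene level, 562 genes passed when adjusted over the genes of the table alone, which the authors had selected on these arrays, and 713 to 890 had an unadjusted p under 0.05 when 1 column was left out. For TadA mutant minus UCC2003, the clusters passing were 1 with an ordinary fit, 0 without the arrays with Cpa1 above 9 and 1 to 3 with 1 array left out. Its gene-level count was 0 with an ordinary fit, 5 with each column centred, 345 adjusted over the table alone and 2 to 8 with 1 column left out. For TadA mutant minus CONV it was 29 without the arrays with Cpa1 above 9, 34 with the smooth muscle covariate and 163 to 392 with 1 array left out. The cause of these changes was not tested.

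Of 3872 values of named genes under alternatives, 3770 kept direction and side of the threshold, 56 passed it, and 46 over 23 features changed sign. Without the arrays with Cpa1 above 9 the sign changed in Cks1b (-0.19), Gins2 (-0.27), Insm1 (0.027), Hnf4a (-0.10), Psme2 (-0.05), Ifng (0.006), Fcgr3 (-0.14), Ier2 (0.12), Jund (0.11), Slc13a2 (0.094), Cldn3 (0.12) and Trib3 (-0.16). With the smooth muscle covariate it changed in Best2 (-0.14), Insm1 (0.019), Psme2 (-0.17), Ifng (0.06), Slc13a2 (0.014), St6galnac1 (-0.002), Chac1 (0.068) and Trib3 (-0.008). With the Cpa1 and Cel covariate it changed in Best2 (-0.004), Hnf4a (-0.053) and B4galnt2 (-0.007), and Hnf4a was -0.018 after median centring and -0.047 after quantile normalization. With 1 array left out, clusters that changed sign ran from -0.021 to 0.043 in Hnf4a, -0.012 to 0.105 in H2-Q1, -0.144 to 0.062 in Ifng, -0.202 to 0.041 in Lyve1, -0.004 to 0.24 in Cldn23 and -0.129 to 0.10 in Trib3. With 1 column left out, genes ran from -0.285 to 0.158 in Slc9a3, -0.096 to 0.055 in Cd163, -0.344 to 0.015 in Bhlhe41 and -0.04 to 0.147 in B4galnt2. Signal near background limits genes at low levels.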
